A study of Zea mays with 10 samples.

Results

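The 7 genes described here belong to the photosynthetic light reactions and were followed in leaves of field-grown maize: 3 encode subunits of photosystem I and 4 encode proteins of photosystem II or its antenna. They were taken by gene symbol from an array annotation that gave exactly 1 gene for 1800 elements and 583 genes in all. The 7 genes stood on 9 of the 19200 elements, and all 9 elements and 7 genes could be tested. The photosystem I genes were psaH (LOC541685), psaN (LOC542605) and psaD (LOC541791), each on 1 element. The photosystem II genes were PSBQ1 (LOC542279) and Lhcb5-2 (LOC542320) on 1 element each, and psbs1 (LOC542126) and lhcb5 (LOC542716) on 2 elements each.

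Weedy plots carried maize together with sown velvetleaf, a broadleaf weed, and control plots were kept mostly weed-free by hand; there were 4 plots of each kind, all without added water or fertilizer. Leaves of 4 plants were pooled per plot, so the pool of a plot is the biological unit, and cultivar, leaf position and age were not given in the sources used here. Each of the 10 arrays, of 2 colours, set 1 weedy pool against 1 control pool, and an array is named here by its plots, so that W3/C1 held weedy plot 3 and control plot 1. Weedy RNA was in the dye Cy5 on W2/C1, W3/C2, W4/C3, W1/C4 and W4/C4, and control RNA was in Cy5 on W1/C2, W1/C3, W2/C4, W3/C1 and W3/C4.

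Photosystem II splits water and feeds electrons into the thylakoid membrane, and photosystem I uses light again to pass those electrons on to ferredoxin. Antenna proteins bind chlorophyll and deliver excitation energy to the reaction centres. In C4 leaves of maize, mesophyll cells hold both photosystems, whereas bundle sheath cells are poor in photosystem II.

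Every value below is a log2 ratio of weedy over control RNA after each array was centred on its median, and positive means higher in weedy leaves. This holds if the deposited ratios run Cy5 over Cy3, which was not stated. A second reading, in which the depositors had already given every array the same direction, weedy over control, exchanges the treatment and dye terms of the fit, and its values are given after those of the first. Values for which no reading is named are on the first. If the ratios run Cy3 over Cy5, all signs of the first reading are the opposite. The signs of the second reading are the opposite if the shared direction was control over weedy. The ratios carry no signal level, so neither the abundance of these transcripts nor the leaf identity of the samples by marker level could be checked. Fewer cells of a type and less RNA per cell cannot be told apart in pooled leaf.

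Between 9965 and 17383 elements had a value on an array. The lowest number was on W3/C4, followed by 13747 on W4/C3. On W3/C4 the elements of psaH, psaN and PSBQ1 and 1 element of psbs1 had no value, so photosystem means rest on the other 9 arrays.

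None of the 9 elements differed between weedy and control leaves past an adjusted p of 0.05 in limma, against 0.0123% of all 16201 elements tested. None of the 7 genes did either, at a background of 0% of the 540 named genes. At an unadjusted threshold of 0.05 the fit named 1 of the 9 elements and 1 of the 7 genes, psaH in both cases, where 12.1% of all elements and 11.9% of all named genes were named. With the arrays reduced to a value per plot, the biological unit, 0 of the 9 elements were named at that threshold. Of the 7 gene ratios, 5 were positive, with a median of 0.15, and over all 540 named genes 309 were positive, with a median of 0.022 and quartiles of -0.057 and 0.10. The second reading gave 2 of the 7 positive, with a median of -0.27, against 255 of 540 and a median of -0.0094.

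psaH encodes a small subunit of photosystem I at the side where the mobile antenna of photosystem II can dock. With weedy RNA in Cy5 its ratios were 0.36 on W2/C1, -0.32 on W3/C2, 0.17 on W4/C3, 0.49 on W1/C4 and -0.38 on W4/C4. With control RNA in Cy5 they were 0.84 on W1/C2, 0.25 on W1/C3, 0.47 on W2/C4 and 1.38 on W3/C1. The ratio was positive on 7 of 9 arrays, and all 4 values with control RNA in Cy5 lay above 0. The fitted ratio was 0.40 (SE 0.14), 1.32-fold, with an adjusted p = 0.319 in limma, the smallest of the 7 genes. It lay at the 98.5th percentile of the ratios of named genes. Under the second reading, psaH was -0.34 (SE 0.13, adjusted p = 0.443), positive on 3 of 9 arrays and at the 3.33rd percentile, and psaN and psaD had smaller adjusted p-values. On W1/C2 and W3/C1 psaH stood at the 98.3rd and 99.6th percentile of the genes on the array, but on W3/C2 it stood at the 8.15th.

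psaN encodes a lumenal subunit of photosystem I that assists electron transfer from plastocyanin. Its ratios with weedy RNA in Cy5 were -0.14 on W2/C1, 0.44 on W3/C2, 0.10 on W4/C3, -0.71 on W1/C4 and -0.92 on W4/C4. With control RNA in Cy5 they were 0.35 on W1/C2, 0.68 on W1/C3, 1.19 on W2/C4 and 0.43 on W3/C1. Control plot 4 thus took part in both the lowest value and the highest one. The fitted ratio was 0.21 (SE 0.15, adjusted p = 0.583), positive on 6 of 9 arrays. It was 0.12 without W2/C4, 0.12 without W3/C2 and 0.11 without weedy plot 2, and on the second reading it was -0.45 (SE 0.14), positive on 2 of 9 arrays.

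psaD encodes the stromal subunit that binds ferredoxin, the electron acceptor of photosystem I. Its ratios were -0.41 on W2/C1, -0.10 on W3/C2, -0.72 on W4/C3, 0.11 on W1/C4 and -0.61 on W4/C4 where Cy5 marked weedy RNA. Where Cy5 marked control RNA they were 0.51 on W1/C2, -0.15 on W1/C3, 0.46 on W2/C4, 1.24 on W3/C1 and 0.24 on W3/C4. Of the 5 negative values, 4 came with weedy RNA in Cy5, and of the 5 positive values, 4 came with control RNA in Cy5. The fitted ratio was 0.054 (SE 0.13, adjusted p = 0.913), and it was -0.059 without W3/C1. Its value on the second reading was -0.40 (SE 0.12), positive on 2 of 10 arrays.

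**Figure D1:**
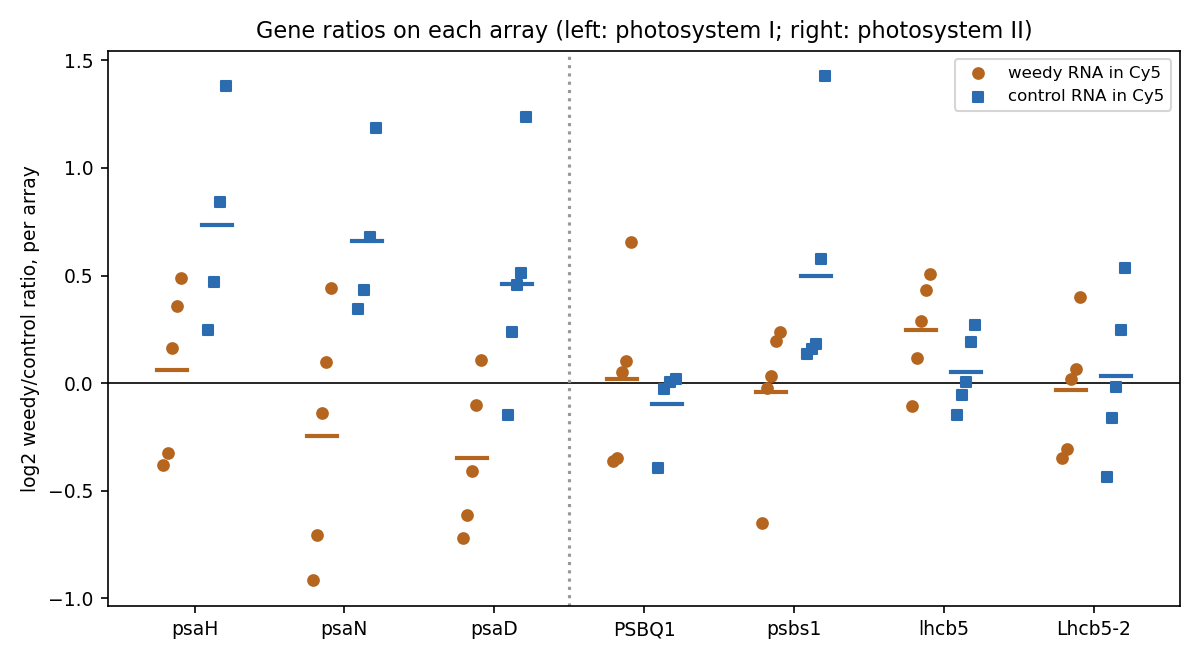
Log2 weedy/control ratio (y axis) of each of the 7 genes (x axis) on each array, with circles for arrays with weedy RNA in Cy5, squares for arrays with control RNA in Cy5, and bars at the mean of each orientation. The squares lie mostly above the circles for psaH, psaN and psaD, and the orientations overlap widely for PSBQ1, lhcb5 and Lhcb5-2.

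PSBQ1 encodes an extrinsic protein of the oxygen-evolving complex of photosystem II. With weedy RNA in Cy5 its ratios were 0.65 on W2/C1, 0.10 on W3/C2, -0.35 on W4/C3, 0.052 on W1/C4 and -0.36 on W4/C4. With control RNA in Cy5 they were 0.019 on W1/C2, 0.0062 on W1/C3, -0.39 on W2/C4 and -0.028 on W3/C1. Of these 4 values, 3 lay within 0.03 of 0, and the orientations overlapped. The fitted ratio was -0.039 (SE 0.11, adjusted p = 0.915), and on the second reading it was 0.059 (SE 0.10, adjusted p = 0.867).

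psbs1 encodes PsbS, which senses the pH of the thylakoid lumen and sets off the dissipation of excess light as heat. Its gene values were 0.24 on W2/C1, 0.032 on W3/C2, 0.19 on W4/C3, -0.022 on W1/C4 and -0.65 on W4/C4 where Cy5 marked weedy RNA. Where Cy5 marked control RNA they were 0.14 on W1/C2, 0.18 on W1/C3, 0.58 on W2/C4, 0.16 on W3/C1 and 1.43 on W3/C4. The orientations overlapped, and 8 of 10 values were positive. The fitted ratio was 0.22 (SE 0.14, adjusted p = 0.535). The lowest value was -0.65 on W4/C4 and the highest 1.43 on W3/C4, where only 1 of its elements had a value. Without W3/C4 the ratio was 0.11. The second reading gave psbs1 -0.27 (SE 0.13, adjusted p = 0.507), with 3 of 10 values above 0. The elements differed in size: element_6734 stood at 0.24 (SE 0.14) and element_18412 at 0.068 (SE 0.11), and they shared the sign on 5 of the 8 arrays where both were measured.

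lhcb5 encodes CP26, a minor antenna protein beside the photosystem II core, and Lhcb5-2 is listed as a further gene of the same name. The gene ratio of lhcb5 was 0.15 (SE 0.076, adjusted p = 0.439), positive on 7 of 10 arrays, and the gene values lay between -0.15 on W1/C2 and 0.51 on W3/C2. Its elements often differed in sign. On W1/C2 element_14324 read -0.54 and element_17293 read 0.25, and on W3/C1 they read -0.50 and 0.51. On W1/C3 the order was the opposite, at 0.59 and -0.21. Over the 10 arrays they shared the sign on 6, on either reading. The gene mean of lhcb5 therefore averages discordant elements.

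Lhcb5-2 had ratios of 0.40 on W2/C1, 0.067 on W3/C2, -0.31 on W4/C3, 0.021 on W1/C4 and -0.35 on W4/C4 where Cy5 marked weedy RNA. On the other 5 arrays they were -0.16 on W1/C2, -0.44 on W1/C3, -0.016 on W2/C4, 0.24 on W3/C1 and 0.54 on W3/C4. Positive and negative arrays were even in number. The fitted ratio was -0.0020 (SE 0.10, adjusted p = 0.992), and on the second reading it was -0.033 (SE 0.099). Whether array elements tell these closely named genes apart was not tested.

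Averaged within each array, the photosystem I genes had a fitted ratio of 0.23 (SE 0.10) and the photosystem II genes one of 0.044 (SE 0.073). Photosystem I minus photosystem II was 0.19 (SE 0.083) over 9 arrays. The photosystem II mean lay between -0.0044 without W2/C1 and 0.081 without W4/C4, and it was -0.017 without weedy plot 2 and 0.13 without weedy plot 4. Photosystem I minus II was 0.13 without W3/C1 and 0.12 without weedy plot 3. These means are over genes chosen with results known and are given with no test. The dye orientations differed in sign. With weedy RNA in Cy5, photosystem I minus II was -0.49 on W2/C1, -0.17 on W3/C2, -0.0094 on W4/C3, -0.079 on W1/C4 and -0.37 on W4/C4. With control RNA in Cy5 it was 0.61 on W1/C2, 0.27 on W1/C3, 0.60 on W2/C4 and 0.92 on W3/C1. The photosystem I mean was thus below the photosystem II mean on 5 of 5 arrays of the first orientation. It was above the photosystem II mean on 4 of 4 arrays of the other. Single genes did not all follow the means. On W1/C4 psaH, at 0.49, stood above every photosystem II gene. On W4/C3 psaH (0.17) and psaN (0.10) stood above PSBQ1, lhcb5 and Lhcb5-2 but below psbs1 (0.19), and psaD was -0.72. On the second reading, the photosystem I mean was below the photosystem II mean on all 9 arrays, with a difference of -0.0094 on W4/C3.

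The orientations lay far apart in the photosystem I mean and close together in the photosystem II mean. Photosystem I averaged -0.18 ± 0.26 with weedy RNA in Cy5 (SD, 5 arrays) and 0.64 ± 0.31 with control RNA in Cy5 (SD, 4 arrays). Photosystem II averaged 0.048 ± 0.27 and 0.038 ± 0.075 on the same arrays. Its genes were not alike in this. Over all its arrays, W3/C4 included, psbs1 averaged -0.041 with weedy RNA in Cy5 and 0.50 with control RNA in Cy5. In the same order lhcb5 averaged 0.25 and 0.053, PSBQ1 0.019 and -0.099, and Lhcb5-2 -0.033 and 0.033. Counted over single gene values, photosystem I genes were positive in 6 of 15 with weedy RNA in Cy5 and in 12 of 13 with control RNA in Cy5. For photosystem II genes the counts were 13 of 20 and 12 of 19. Over all named genes 50.1% and 52.3% of values were positive.

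**Figure D2:**
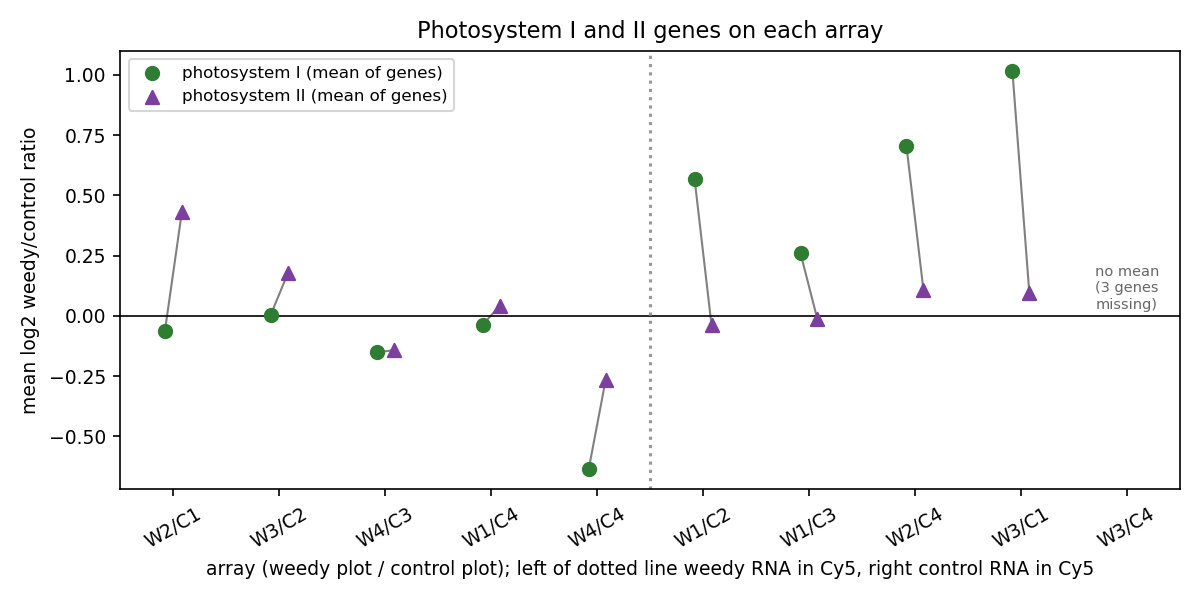
Mean log2 weedy/control ratio of the 3 photosystem I genes (circles) and of the 4 photosystem II genes (triangles) on each array (x axis, weedy plot over control plot). Left of the dotted line, with weedy RNA in Cy5, circles lie below triangles on all 5 arrays, and right of it, with control RNA in Cy5, circles lie above triangles on the 4 arrays with a value; on W3/C4 only some genes were measured and no mean is drawn.

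The dye term of the fit, read as Cy5 over Cy3, was -0.33 (SE 0.13) for psaH, -0.45 (SE 0.14) for psaN and -0.40 (SE 0.12) for psaD. It was -0.27 (SE 0.13) for psbs1, 0.068 (SE 0.10) for PSBQ1, 0.099 (SE 0.071) for lhcb5 and -0.029 (SE 0.096) for Lhcb5-2. For psaN and psaD it was larger in size than the treatment term. The dye term passed for 0 of the 540 genes in limma, with adjusted p = 0.419 for psaH and adjusted p = 0.288 for psaN and for psaD. At an unadjusted threshold of 0.05 it named 3 of the 7 genes, the photosystem I genes, where it named 10% of all named genes.

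On the second reading these terms change places, and the photosystem I ratios are negative. The photosystem I mean was then -0.41 (SE 0.096) and photosystem I minus II was -0.41 (SE 0.078), with psaH at -0.34, psaN at -0.45 and psaD at -0.40, none past the threshold (adjusted p = 0.443, 0.296 and 0.296 in limma). The direction for the photosystem I genes therefore turned with the reading, whereas lhcb5 was positive on both, at 0.15 and 0.097. With block medians of the value table removed, lhcb5 was 0.065 (SE 0.059) on the first reading. Its dye term differed by element, at 0.18 for element_14324 and 0.019 for element_17293.

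**Figure D3:**
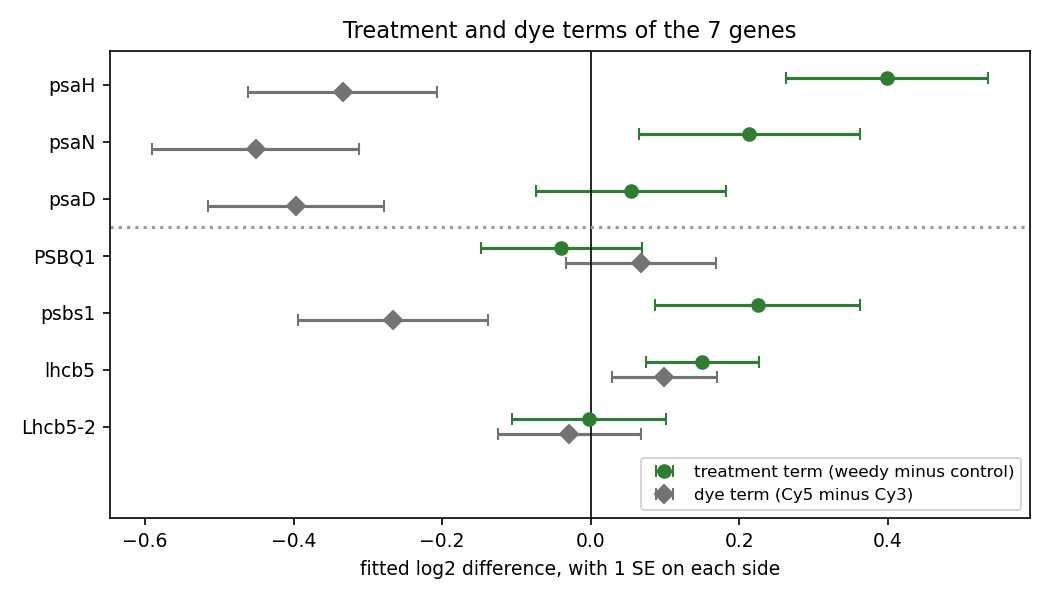
Fitted treatment term (circles, weedy minus control) and dye term (diamonds, Cy5 minus Cy3) of the 7 genes, in log2 units with 1 SE on each side. The 3 photosystem I genes and psbs1 have dye terms from -0.45 to -0.27, and the other 3 genes have dye terms from -0.029 to 0.099.

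Position in the value table moved with this pattern. The elements of psaH, psaN and psaD and the psbs1 element with a dye term of -0.37, element_6734, lay in the first 9600 rows. The other 5 member elements lay in the later rows, among them element_18412 of psbs1, with a dye term of -0.048. Over all tested elements the dye term was negative for 62.5% in the first 9600 rows (median -0.040) and 35.1% in the later rows (median 0.048). The dye term lay below -0.3 for 4.74% of elements in the first 9600 rows and for 1.53% in the later rows. With the median of each block of 400 rows removed, the photosystem I dye term was -0.39 (SE 0.11) and the treatment term 0.23 (SE 0.11). The photosystem II treatment term was -0.0020 (SE 0.063), and the dye term of photosystem I minus II was -0.33 (SE 0.098). The psbs1 elements were then closer together, with dye terms of -0.38 for element_6734 and -0.17 for element_18412. In the same setting the photosystem I mean was below the photosystem II mean on 5 of 5 arrays with weedy RNA in Cy5. It was above the photosystem II mean on 3 of 4 with control RNA in Cy5. The part of array position beyond these block medians was not tested.

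Among the weedy plots, plot 4 stood lowest in both means on the first reading. Over its 2 arrays the photosystem I mean was -0.39 and the photosystem II mean -0.20, with psaD at -0.67, PSBQ1 at -0.36 and Lhcb5-2 at -0.33. Both values were negative on W4/C3 and on W4/C4 for each of these genes. The other members were mixed in sign. psaH, at -0.11, psaN, at -0.41, and psbs1, at -0.23, were positive on W4/C3, and lhcb5, at 0.091, was positive on W4/C4. Over the other weedy plots the photosystem I mean was 0.26 for plot 1, 0.32 for plot 2 and 0.51 for plot 3, and the photosystem II mean was -0.0036, 0.27 and 0.14. The pool of weedy plot 4 never carried Cy3, so for it dye and plot cannot be told apart. Within the Cy5 orientation, its photosystem I values of -0.15 and -0.64 were the lowest of 5, against 0.0057, -0.037 and -0.063 for weedy plots 3, 1 and 2. Without weedy plot 4 the photosystem I mean was 0.30. Read the second way, the photosystem I means were -0.29, -0.38, -0.51 and -0.39 for weedy plots 1 to 4, with plot 3 lowest, and the ranges over arrays overlapped. The photosystem II means were then 0.032, 0.16, 0.041 and -0.20, with plot 4 again lowest.

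Sorted by control plot, the photosystem I mean was 0.48 over the arrays with control plot 1, 0.29 with plot 2, 0.054 with plot 3 and 0.010 with plot 4. The ranges over the arrays of a plot overlapped among all 4 control plots. The order differed on the second reading, with -0.54, -0.28, -0.21 and -0.46 for control plots 1 to 4. Without control plot 1 the photosystem I mean was 0.16, without weedy plot 3 it was 0.15, and psaH was 0.24 and 0.34 in these settings. W3/C1, which joins these plots, held the psaH and psaD values of largest size on either reading.

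**Figure D4:**
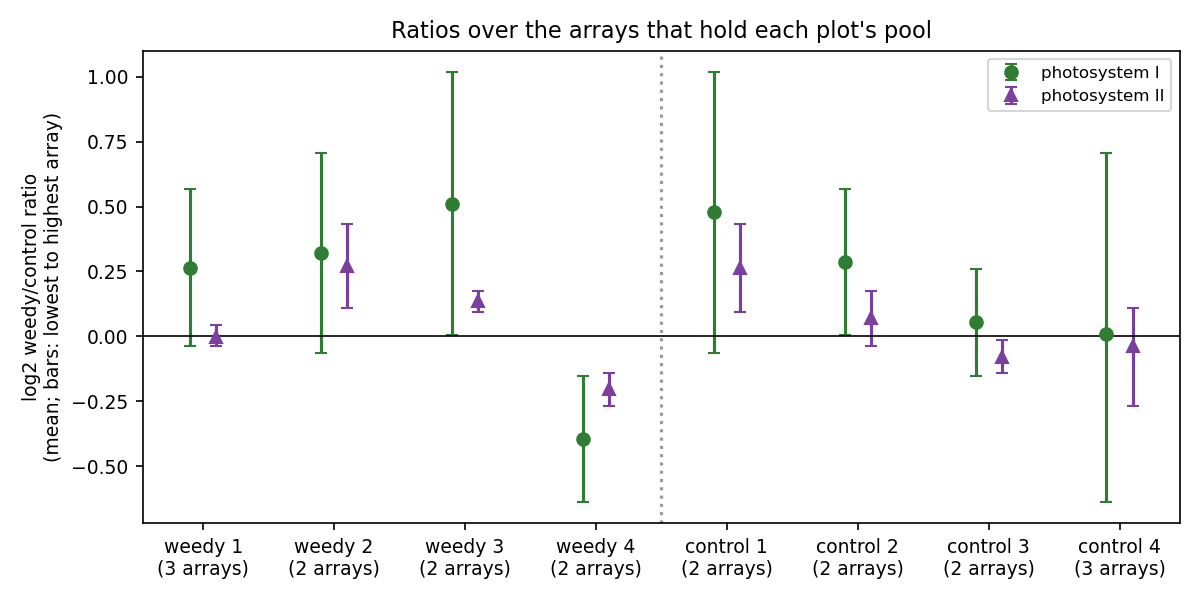
Mean log2 weedy/control ratio of the photosystem I genes (circles) and photosystem II genes (triangles) over the arrays that hold each plot's pool, weedy plots left and control plots right, with bars from the lowest to the highest array. The values are on the first reading, where weedy plot 4 is the pool with both means and both ranges below 0 among the weedy plots; each array appears under both of its plots.

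Correlations among the 7 genes over arrays are given as a description, since arrays share plots and the turned values share the dye pattern. Within photosystem I, r was 0.83 for psaH and psaD, 0.47 for psaN and psaD and 0.32 for psaH and psaN. Within photosystem II the 6 pairs ranged from -0.32 to 0.66, with the highest value for PSBQ1 and Lhcb5-2. Between the photosystems the 12 pairs ranged from -0.59, for psaH and lhcb5, to 0.81, for psaN and psbs1. The median was 0.47 within photosystem I, 0.26 within photosystem II and 0.097 between them, against 0.0017 over all pairs of other named genes. The medians on the second reading were 0.13, 0.22 and 0.19. Then psaH and psaD had 0.62, psaN and psbs1 0.80, and psaH and lhcb5 0.19.

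Of 390 other named genes with a value on all 10 arrays, the one most like the mean of the 7 genes was me3 (LOC542233), the NADP-malic enzyme of the C4 pathway in bundle sheath, with r = 0.92 over 9 arrays. The phosphoenolpyruvate carboxylase gene pep7 (LOC542479) and the histone gene his2b5 (LOC542301) followed at 0.85 each. Their own ratios were 0.12, 0.0053 and 0.023, all smaller than the ratio of psaH. psaH was most like the glutathione transferase gene gst1 (LOC542366), at 0.83, and the glyceraldehyde-3-phosphate dehydrogenase genes gpc3 (LOC542333) and gpc2 (LOC542718), both at 0.81. On the second reading the values were 0.91 for me3, 0.65 for pep7, 0.64 for his2b5, 0.85 for gst1, 0.68 for gpc3 and 0.82 for gpc2. The 6 genes were picked as the highest of many on the first reading, and were not tested.

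Other genes of the chloroplast were few in the annotation. Of 8 matched by symbol as thylakoid, electron transport or plastid import genes, 5 were positive and 0 passed, with a median of 0.089; on the second reading 3 were positive and 0 passed, with a median of -0.021. At an unadjusted threshold of 0.05 this list held fdx2 (LOC541619), a ferredoxin, at 0.39 (SE 0.11, adjusted p = 0.274), and toc34B (LOC542012), a receptor of plastid protein import, at -0.36 (SE 0.087, adjusted p = 0.195). Their second-reading values were -0.094 and -0.026. The antenna gene Cab-m7 had 0.17 (SE 0.11), and 0.087 on the second reading. One match, LOC542267, carries the synonyms ATPB and ATP2 and may be a mitochondrial gene.

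Of 2 genes matched as pigment synthesis, pds1 (LOC542329), a phytoene desaturase of the carotenoid pathway, had -0.32 (SE 0.11, adjusted p = 0.361), and the other, crd101, had 0.017. These had 0.12 and -0.059 on the second reading. Of 10 genes matched as carbon fixation, 7 were positive and 0 passed, with a median of 0.035; on the second reading 1 was positive and 0 passed, with a median of -0.13. me2 (LOC542331) had 0.22 (SE 0.062, adjusted p = 0.272), and mdh6 (LOC542374), the chloroplast malate dehydrogenase of the C4 pathway, had 0.34 (SE 0.15, adjusted p = 0.422). On the second reading me2 had -0.085, positive on 5 of 10 arrays against 10 of 10 on the first, and mdh6 had -0.49 (SE 0.14, adjusted p = 0.296). Among the matches, PDK1 and rcalm met the pattern by letters and are not known here as carbon fixation genes.

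Bundle sheath markers were rbcs1 at 0.23, me3 at 0.12 and rca1 at -0.10, and on the second reading -0.45, -0.44 and -0.025. The mesophyll list held 1 usable marker, mdh6, since PDK1 was matched by its letters alone (-0.033 and -0.014 on the 2 readings). None of these passed the threshold on either reading. Of 5 genes matched as kernel genes 4 were positive, from -0.16 for ae1 to 0.28 for o2, and 0 passed; on the second reading 3 were positive. The part of cell composition in the ratios of the photosystem genes was not tested.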

How the data were processed

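Leaf RNA was labelled as cDNA and hybridised on 10 arrays of 2 colours, per the labels. The deposited values came as 1 log ratio per element and array, with log base, numerator channel, background correction, normalization and filters not given in the sources used here. The deposited values, at most 7.64 in size, were read as log2; if they are natural logs, all sizes are too small by 1 common factor. Depth has no meaning for arrays, and their number limits precision.

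Arrays were centred on their medians. Elements were kept where each dye orientation gave at least 4 values (16201). Each was fitted by generalised least squares with treatment and dye terms and the 8 plots as a random effect (variance ratio 0.0347, restricted likelihood). Variances were moderated in limma 3.58.1 (R 4.3.3), with Benjamini-Hochberg adjustment over all tested elements, or over 540 genes after averaging the elements of a gene. The symbol MNB1b, on 230 elements, was left out. The fit was tested on simulated data that held no dye or position pattern, so that test does not bear on either pattern. P-values measure the spread between plot pools and arrays. The variance ratio was shared by all elements and was small, so arrays entered the fit nearly as independent replicates. In the alternative that reduced the arrays to a value per plot, the SE was larger for every member. psaH was then 0.38 (SE 0.21, adjusted p = 0.998), against an SE of 0.14 and adjusted p = 0.319 in the main fit. The photosystem I mean was 0.23 (SE 0.11) in that alternative.

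Genes were named by the platform annotation, with synonyms from RefSeq assembly Zm-B73-REFERENCE-NAM-5.0 (562 of 583 genes matched); an element with several genes was not used. Members, lists and tests were chosen with earlier results of these data known. All members were described. From the lists, genes with an unadjusted p under 0.05 were named, otherwise the 2 of smallest p. The 3 genes most correlated with the mean of the 7 genes, and with psaH, were also named. Cab-m7, crd101 and the other members given of a list were added after their values were seen. Alternatives covered centring, scaling, plots, dye, missing values, moderation, weights, direction, table position, and arrays or plots left out.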

Additional observations from a re-analysis of the deposited data

Results flagged for a closer look

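On the first reading, photosystem I minus photosystem II was below 0 on every array with weedy RNA in Cy5 and above 0 on every measured array with control RNA in Cy5, which gives a dye term of -0.41 (SE 0.077). The difference between orientations of this mean was not tested, because the genes were chosen with results known.

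Among 30 checks of 1 measure within 1 dye orientation, 4 found an array far from the others, and chance gives about 1 in 20. The checks are not independent, since they share arrays, and an excess over chance was not tested. The photosystem I mean of -0.64 on W4/C4 stood apart from the other 4 arrays with weedy RNA in Cy5. PSBQ1 at -0.39 on W2/C4 stood apart from the other 3 arrays with control RNA in Cy5 and a value. W4/C3 lacked a value for 5453 elements and W3/C4 for 9235, far above the other arrays of their orientations.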

How the results depend on the processing

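Leaving out W4/C3 and W3/C4 together was chosen after seeing the data. None of the 9 elements passed in any of the 33 alternatives. The photosystem I mean, 0.23, stayed positive in all but 1 of its 32 alternatives and ranged from 0.17 to 0.29 with 1 array left out and from 0.15 to 0.32 with 1 plot left out. With the values read as already turned it was -0.41, and photosystem I minus II was -0.41. On that reading psaH was -0.34, psaN -0.45, psaD -0.40, PSBQ1 0.059 and psbs1 -0.27. When W2/C4 and W3/C4, where Cy5 marked control plot 4, had their sign changed, the photosystem I mean was 0.059 (SE 0.19) and photosystem I minus II 0.041, and psaN was -0.074, psaD -0.081, PSBQ1 0.058 and psbs1 -0.14. Lhcb5-2 was 0.0047 with block medians removed. PSBQ1 was 0.0064 without W4/C3 and W3/C4. With 1 array or plot left out, psaD ranged from -0.085 to 0.18, PSBQ1 from -0.14 to 0.086 and Lhcb5-2 from -0.12 to 0.10. The cause was not tested.

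A fit with plot numbers taken as a replicate block gave no new call: the photosystem I mean was 0.24 and psaH was 0.41 (adjusted p = 0.341). The labels do not say that plots share more than a number, and ratios give no separate value per pool to check it. With elements on all 10 arrays only, psaH, psaN and PSBQ1 were not tested and no photosystem mean could be formed. The lowest adjusted p of a member in any alternative was 0.103, for psaH with array weights (0.51). No signal over background was available, so dim elements could not be set apart.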
